A study of Caenorhabditis elegans with 8 samples.

Results

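The cuticle collagens of Caenorhabditis elegans named with the prefix col- were followed through immunoprecipitates (IPs) of 2 oocyte RNA-binding proteins. Every gene of the authors' deposited table whose name starts with col- was taken, 119 of 16031 genes. Collagen genes named for a body shape phenotype (dpy, sqt, rol, bli and others) were kept apart as a list of their own.

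A cuticle collagen is a short secreted protein with a Gly-X-Y repeat that forms a triple helix, which is trimmed, cross-linked and laid down by the hypodermis, the outer epithelium of the worm. A new cuticle is made at each larval moult, so many col genes are transcribed in pulses tied to one stage, and the adult cuticle has collagens of its own. OMA-1, a CCCH zinc finger protein, and LIN-41, a TRIM-NHL protein, bind maternal mRNAs in growing oocytes and control their translation. LIN-41 is also known from the larval hypodermis, where it holds back the factors that start the adult programme of collagen genes.

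The OMA-1 strain had the genotype fog-1(q253ts); oma-1(zu405te33) and carried the integrated transgene tnIs17, in which the oma-1 promoter drives OMA-1 with S, TEV and GFP tags beside an unc-119(+) rescue gene. The LIN-41 strain had the tag at the endogenous locus, lin-41(tn1541) with GFP, TEV and S sequences, together with fog-1(q253ts). All animals therefore carried fog-1(q253ts), which feminises the germ line at 25 °C, and all were young adults collected after about 48 h on food at 25 °C. Each tagged protein had 2 IP libraries made with antibodies to GFP and, from the same strain, 1 lysate library depleted of ribosomal RNA and 1 not depleted, 8 libraries in 6 groups. The IP libraries are labelled as having had no RNA enrichment step. The labels give each sample of a genotype a strain name that is 1 above the last, so grouping went by genotype and title on the assumption that each genotype was a single strain. No label names an IP from untagged or mock animals. The lysates came from whole animals grown in bulk, so a lower level through fewer cells of a type and one through less RNA per cell cannot be told apart.

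The authors' deposited table holds pooled FPKM values (fragments per kilobase of transcript, scaled for library size) for the OMA-1 IPs, the LIN-41 IPs and the depleted lysates of both strains, with a log2 ratio of each IP to those pooled lysates. No value per library was used, so no value below has an SD, and depth per library is unknown. The deposited baseMean, a scaled mean read signal over libraries, stands for depth: its median was 11.5 for the col genes and 44.4 for all genes in the authors' deposited table, and 56 of the 119 were below 10. The authors' adjusted p looked only for enrichment. Values below the lysates and differences between the IPs were tested with an approximate normal test on standard errors (SEs) implied by those p-values, with Benjamini-Hochberg adjustment over all genes. The 3 FPKM columns of the authors' deposited table had unequal totals, 1006225 for OMA-1, 762130 for LIN-41 and 394382 for the lysates. Equal totals would lower the log2 ratios of all genes alike, by a shift of -1.33 (OMA-1) and -0.95 (LIN-41). Quantile normalization moved the median of all genes by -0.07 and 0.01, but its shift depended on level. For col genes with at least 30 FPKM in the lysates it moved the median from -1.61 to -2.76 (OMA-1) and from -0.57 to -1.44 (LIN-41). For col genes with less, the median went from -0.90 to -0.64 (OMA-1) and from -0.04 to 0.14 (LIN-41).

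Most col genes were low in the lysates of these young adults, and a minority were among the abundant mRNAs. In the authors' deposited table the median lysate level was 1.21 FPKM for the 119 col genes and 3.04 FPKM for all genes. The family ranged from 0 to 1040 FPKM in the authors' deposited table: 54 genes lay below 1 FPKM and 19 at or above 100 FPKM. There was a gap between 18.8 FPKM, the level of col-149, and 45.5 FPKM, that of col-142. The 26 genes above the gap are called the abundant col genes here, a division made with the levels in view. The 10 highest held 69.4% of the summed lysate FPKM of the family.

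Those 10 were col-140, col-119, col-20, col-124, col-19, col-122, col-101, col-8, col-181 and col-143. The highest, col-140 (WBGene00000713, chromosome V 5835855 to 5836834 in WBcel235), had 324 FPKM with OMA-1, 833 FPKM with LIN-41 and 1040 FPKM in the lysates in the authors' deposited table. Next was col-119 (WBGene00000693, IV 8978926 to 8979795), with 207 FPKM in the OMA-1 IPs, 513 FPKM in the LIN-41 IPs and 1002 FPKM in the lysates of the authors' deposited table. Both were lower in either IP than in the lysates by the approximate test. For col-140 the log2 ratio with LIN-41 was only -0.32 in the authors' deposited table. That call was lost when its SE, borrowed from genes of like depth, was taken at their 99.5th percentile. The adult-specific collagen col-19, a standard marker of the adult hypodermis, had 192 FPKM with OMA-1, 373 FPKM with LIN-41 and 725 FPKM in the lysates in the authors' deposited table. The other genes listed as adult collagens, col-7, col-62, col-38, col-49 and col-63, reached at most 3.90 FPKM in the lysates of the authors' deposited table. The dauer collagen col-40 stood at 0.27 FPKM in the lysates of the authors' deposited table, and col-2 was not analysed here. Of the adult collagens named, col-19 alone was abundant.

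**Figure D1:**
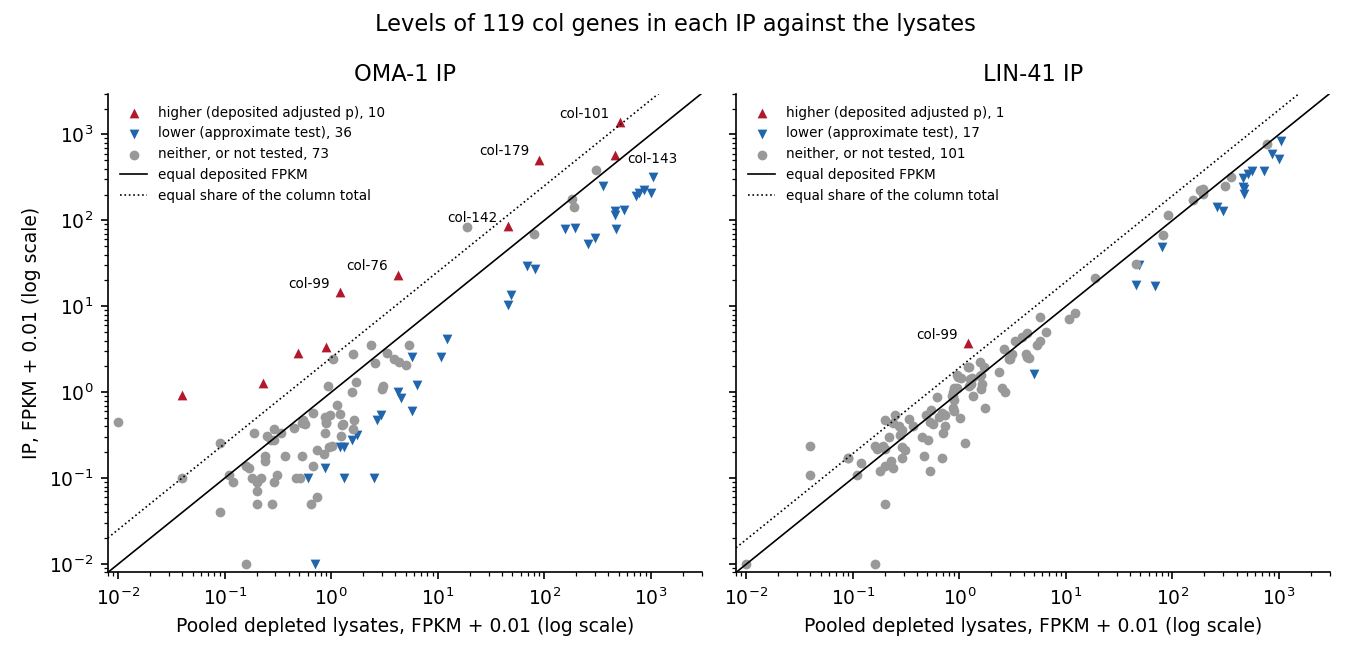
Deposited FPKM of each col gene in the OMA-1 IPs (left) and LIN-41 IPs (right) against the depleted lysates, both axes on a log scale with 0.01 FPKM added. Red triangles are genes higher by the authors' adjusted p (10 and 1), blue triangles genes lower by the approximate test (36 and 17), and points below the solid line have less FPKM in the IP. Against the dotted line, which marks an equal share of the column totals, col-101 lies close by and col-142 and col-143 lie below with OMA-1. Names on the left stand beside called genes of at least 10 FPKM.

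The col family took a smaller share of the IPs than of the lysates. Its summed FPKM was 5780 in the OMA-1 IPs, 6968 in the LIN-41 IPs and 9898 in the lysates of the authors' deposited table. As a share of all FPKM in each column of the authors' deposited table, that was 0.574% with OMA-1, 0.914% with LIN-41 and 2.51% in the lysates. Without the genes of the mitochondrial genome the shares were 0.585% for OMA-1, 0.919% for LIN-41 and 2.53% for the lysates. A share within a column does not depend on how the columns were scaled against each other. They have no replicate error here, since each is a single pooled value.

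The makeup of the family also differed between columns. Alone, col-101 held 24.4% of the family's FPKM with OMA-1, 5.02% with LIN-41 and 5.16% in the lysates of the authors' deposited table. For col-179 these shares of the family were 8.85% with OMA-1, 1.66% with LIN-41 and 0.911% in the lysates of the authors' deposited table. For col-143 they were 10.1% with OMA-1, 4.47% with LIN-41 and 4.67% in the lysates of the authors' deposited table. In the OMA-1 IPs the 3 genes of highest FPKM were col-101, col-143 and col-179, and none of the 3 was among the 5 highest of the lysates.

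With OMA-1, the family as a whole lay below the lysates. Its median log2 ratio was -0.96 in the authors' deposited table, against -0.09 over all genes, and 79.0% of col genes had a ratio below 0, against 52.2% of all genes. With equal totals the medians were -2.29 for the col genes and -1.42 for all genes, and with quantile normalization -1.04 and -0.16. Of 116 col genes tested, 10 (8.62%) were called higher in the OMA-1 IPs by the authors' deposited table (adjusted p below 0.05), where 28.4% of all genes tested were called. The approximate test called 36 (31.03%) lower, where 18.8% of all genes were called. Of those 36 genes, 34 were lower by at least 2-fold, and their log2 ratios lay between -0.48 and -3.91 in the authors' deposited table. The SE behind 29 of the 36 was borrowed from genes of like depth, and behind the other 7 from the LIN-41 comparison. The remaining 70 tested genes passed neither test, 44 of them with less than 1 FPKM in the lysates. Their log2 ratios spanned -2.65 to 2.54 and their median baseMean was 5.78 in the authors' deposited table. The 3 untested genes, col-50, col-54 and col-186, had at most 0.19 FPKM in the lysates of the authors' deposited table.

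Among the 26 abundant col genes, 4 were higher with OMA-1 and 18 were lower. Of all 3246 tested genes with at least 30 FPKM in the lysates, 46.5% were higher and 37.5% lower. The lowest of the abundant genes was col-8 (WBGene00000597, III 7019583 to 7020600), with 80.2 FPKM with OMA-1 and 471 FPKM in the lysates of the authors' deposited table. Its log2 ratio was -2.50 in the authors' deposited table, with a borrowed SE of 0.136 and an adjusted p of 8.77e-74 by the approximate test. That p rests on the SE of other genes of like depth and not on a spread measured for col-8. Of 8 col genes with a baseMean of at least 100 and their own OMA-1 SE, 4 were above the 95th percentile used for borrowing. Genes col-160, col-119 and col-184 followed at -2.30, -2.27 and -2.26 in the authors' deposited table. For col-19 the log2 ratio was -1.91 in the authors' deposited table (approximate SE 0.132), and for col-140 it was -1.66 (0.132). All of these were lower by the approximate test, also with quantile normalization, which moved their ratios further below 0.

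Of the 5 lowest genes past the approximate test, col-8 was abundant and the other 4 were weakly detected. In the authors' deposited table col-180 had 0.09 FPKM with OMA-1 and 2.49 FPKM in the lysates, a log2 ratio of -3.91. The neighbours col-13 and col-12, which encode near-identical collagens, had 0 and 0.31 FPKM with OMA-1 and 0.69 and 1.74 FPKM in the lysates of the authors' deposited table. Their log2 ratios of -3.19 and -2.23 in the authors' deposited table both passed the approximate test. Both calls were lost with borrowed SEs at the 99.5th percentile, and that of col-12 also with quantile normalization. Reads could have been split between this pair. The ratios were -3.06 for col-175 and -2.71 for col-166 in the authors' deposited table. Of the other genes with a listed role, col-7, col-10, col-14, col-17, col-34, col-38, col-40, col-49 and col-62 had ratios between -0.68 and -2.57 and col-63 one of 0.31 in the authors' deposited table, and none of these 10 passed either test. The deposited ratios of weak genes lie nearer to 0 than those of their FPKM values: col-62 had 0.04 FPKM with OMA-1 and 0.63 FPKM in the lysates in the authors' deposited table, at a deposited log2 ratio of -2.57.

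The 10 exceptions with OMA-1 ran from rare to abundant mRNAs. The highest ratio belonged to col-99 (WBGene00000674, IV 137974 to 147919), which encodes a transmembrane collagen known for axon guidance and is not a typical cuticle collagen. It had 14.7 FPKM with OMA-1, 3.70 FPKM with LIN-41 and 1.20 FPKM in the lysates of the authors' deposited table. The log2 ratio with OMA-1 was 3.59 (adjusted p 5.33e-47) in the authors' deposited table. Its exons share 108 bases with daf-1, a TGF-beta receptor gene on the other strand, whose log2 ratios in the authors' deposited table were 1.44 (OMA-1) and 4.35 (LIN-41). The strand setting of the counts is not given in the sources used here, and the part of these shared bases in the col-99 value was not tested.

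The largest of the exceptions by level was col-101 (WBGene00000675, IV 325435 to 327020). In the authors' deposited table it had 1408 FPKM with OMA-1, 350 FPKM with LIN-41 and 511 FPKM in the lysates, and no other col gene was as high in the OMA-1 IPs. Its log2 ratio with OMA-1 was 1.46 (adjusted p 1.28e-47) in the authors' deposited table, but 0.13 under equal totals and -0.089 after quantile normalization. The gene lies inside an intron of drl-1, a kinase gene on the other strand, whose log2 ratio with OMA-1 was 1.34 in the authors' deposited table, at 10.01 FPKM with OMA-1 and 3.92 FPKM in the lysates. The median of the 26 abundant col genes was -1.61 in the authors' deposited table, -2.94 with equal totals and -2.76 with quantile normalization, so col-101 stood above it on each scale, while its excess over the lysates depended on the scaling.

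On chromosome X, col-179 (WBGene00000752, X 11201465 to 11202485) had 512 FPKM with OMA-1, 116 FPKM with LIN-41 and 90.2 FPKM in the lysates of the authors' deposited table. Its log2 ratio over the lysates was 2.45 for OMA-1 (adjusted p 4.15e-10) in the authors' deposited table, and 0.57 and no longer called with quantile normalization. Its implied SE of 0.383 stood above the 95th percentile of genes of like depth. Less abundant was col-76 (WBGene00000652, II 8204339 to 8207495), with 23.5 FPKM with OMA-1, 2.78 FPKM with LIN-41 and 4.22 FPKM in the lysates in the authors' deposited table. Its log2 ratio with OMA-1 was 2.44 (adjusted p 2.22e-17) in the authors' deposited table. With equal totals the calls that remained were those of col-99, col-179 and col-76.

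Of the other exceptions, 4 were rare in the lysates. In the authors' deposited table, col-121 (WBGene00000695, IV 9394873 to 9396218) had 0.92 FPKM with OMA-1, 0.23 FPKM with LIN-41 and 0.03 FPKM in the lysates. Its log2 ratio with OMA-1 was 3.54 (adjusted p 0.00205) in the authors' deposited table, and its exons share 107 bases with daf-15 on the other strand, at 46.9 FPKM with OMA-1 and 49.4 FPKM in the lysates. For col-68 the ratio was 2.41 (adjusted p 0.000566), for col-141 2.16 (0.0473) and for col-116 1.81 (0.0128) in the authors' deposited table. The exons of col-116 share 508 bases with F17E9.2 on the same strand, so reads of the 2 genes may have been split between them. All 4 kept a positive ratio with equal totals, and none was then called.

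The last 2 exceptions, col-142 (V 6831177 to 6832256) and col-143 (V 6835635 to 6836704), lie beside col-141 (V 6829704 to 6830739). In the authors' deposited table col-142 had 86.5 FPKM with OMA-1, 17.8 FPKM with LIN-41 and 45.5 FPKM in the lysates, a log2 ratio with OMA-1 of 0.91 (adjusted p 0.0232). The more abundant col-143 had 585 FPKM with OMA-1, 312 FPKM with LIN-41 and 462 FPKM in the lysates, a log2 ratio of 0.34 (adjusted p 0.00413) in the authors' deposited table. These small ratios turned negative under the other scalings, to -0.43 and -0.997 with equal totals and to -0.090 and -1.37 with quantile normalization for col-142 and col-143.

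Some genes with positive ratios missed the threshold. For col-149 the authors' deposited table had 83.6 FPKM with OMA-1, 21.6 FPKM with LIN-41 and 18.8 FPKM in the lysates, a log2 ratio of 1.87 at an adjusted p of 0.0716. Its implied SE was 0.918, at the 99.5th percentile of genes of like depth. For col-178 the ratio was 0.32 (adjusted p 0.0667) in the authors' deposited table, with 385 FPKM with OMA-1 and 309 FPKM in the lysates. Equal totals turned it to -1.02 and quantile normalization to -1.40, and it was lower by the approximate test under both. The gene col-47 was listed at 0 FPKM in the lysates and in the LIN-41 IPs and at 0.44 FPKM in the OMA-1 IPs of the authors' deposited table, at a deposited adjusted p of 0.0876. Both col-149 and col-47 were chosen after their values were seen.

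**Figure D2:**
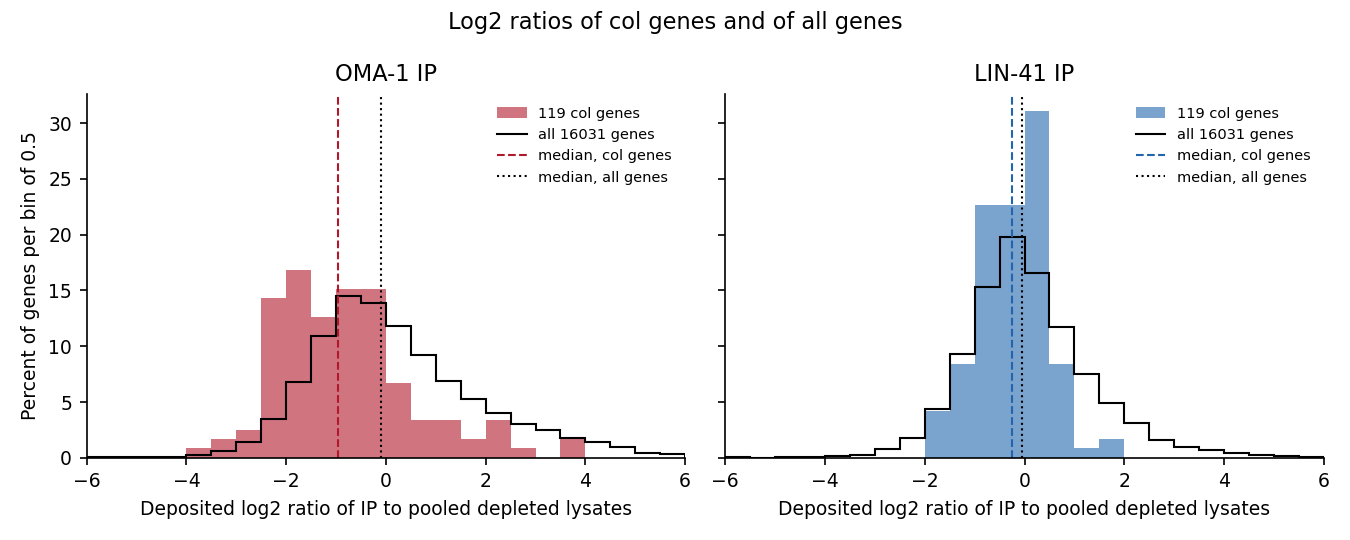
Share of genes per bin of 0.5 in the deposited log2 ratio of each IP to the pooled depleted lysates, for the 119 col genes (filled) and all 16031 genes (line), with dashed and dotted lines at the medians. With OMA-1 the col genes gather to the left of all genes, medians -0.96 and -0.09, and with LIN-41 the 2 medians are closer, -0.24 and -0.05; equal totals would shift both sets by -1.33 and -0.95.

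With LIN-41, the family lay nearer to the lysates. The median log2 ratio was -0.24 in the authors' deposited table, against -0.05 over all genes, and 58.0% of col genes had a ratio below 0, against 52.0% of all genes. With equal totals the medians were -1.20 for the col genes and -1.01 for all genes, and with quantile normalization -0.13 and -0.05. Of 101 col genes tested, 1 (0.990%) was called higher by the authors' deposited table, col-99, where 27.2% of all genes tested were called. The approximate test called 17 (16.8%) lower, where 14% of all genes were called, so for the family as a whole this share was near the background. Of the 17, 6 were lower by at least 2-fold, and the log2 ratios lay between -0.32 and -1.76 in the authors' deposited table. The SE behind 14 of the 17 was borrowed from genes of like depth, and behind the other 3 from the OMA-1 comparison. The 83 genes that passed neither test had log2 ratios between -1.83 and 1.89 in the authors' deposited table. The 18 untested genes had at most 0.52 FPKM in the lysates of the authors' deposited table.

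The lower calls with LIN-41 came from abundant col genes, with 1 exception, col-150. Of the 26, 16 were lower and 0 were higher, whereas of the 3246 genes with at least 30 FPKM in the lysates 32.1% were lower and 45.8% higher. With borrowed SEs at the 99.5th percentile, 11 of the 17 lower calls were left. The calls of col-150 and of the abundant genes col-122, col-140, col-160, col-20 and col-81 were then lost. The lowest was col-95 (WBGene00000670, III 11703994 to 11705091), with 17.1 FPKM with LIN-41 and 69.0 FPKM in the lysates of the authors' deposited table. Its log2 ratio was -1.76 in the authors' deposited table (borrowed SE 0.203, adjusted p 7.99e-17 by the approximate test). That p, too, rests on the SE of other genes of like depth. Next came col-150 at -1.60, col-142 at -1.33, col-184 at -1.21 and col-181 at -1.20 in the authors' deposited table. All 5 were lower by the approximate test also with quantile normalization, which moved all but col-150 further below 0. With borrowed SEs at the 99.5th percentile, col-150 alone of these 5 lost its call. For col-19 the log2 ratio with LIN-41 was -0.96 in the authors' deposited table (approximate SE 0.136), and this value was also lower by the approximate test.

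The single call, col-99, had a log2 ratio with LIN-41 of 1.62 (adjusted p 3.37e-09) in the authors' deposited table and was called also with equal totals and with quantile normalization. It shares exonic bases with daf-1, whose FPKM in the authors' deposited table was 305 with LIN-41 and 14.9 in the lysates. The highest ratio of the family with LIN-41 was that of col-121, 1.89, which missed the threshold in the authors' deposited table (adjusted p 0.156). The ratios of col-179 and col-149 with LIN-41 were 0.35 (adjusted p 0.503) and 0.17 (0.945) in the authors' deposited table. Both IPs are set against the same lysates, so the 2 ratios of a gene share their denominator. Of 101 col genes tested in both IPs, 12 were lower in both. Another 3 (col-101, col-142 and col-143) were higher with OMA-1 and lower with LIN-41 under the deposited scaling. The shares of all genes with these joint calls were not worked out, so no background stands beside either count.

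**Figure D3:**
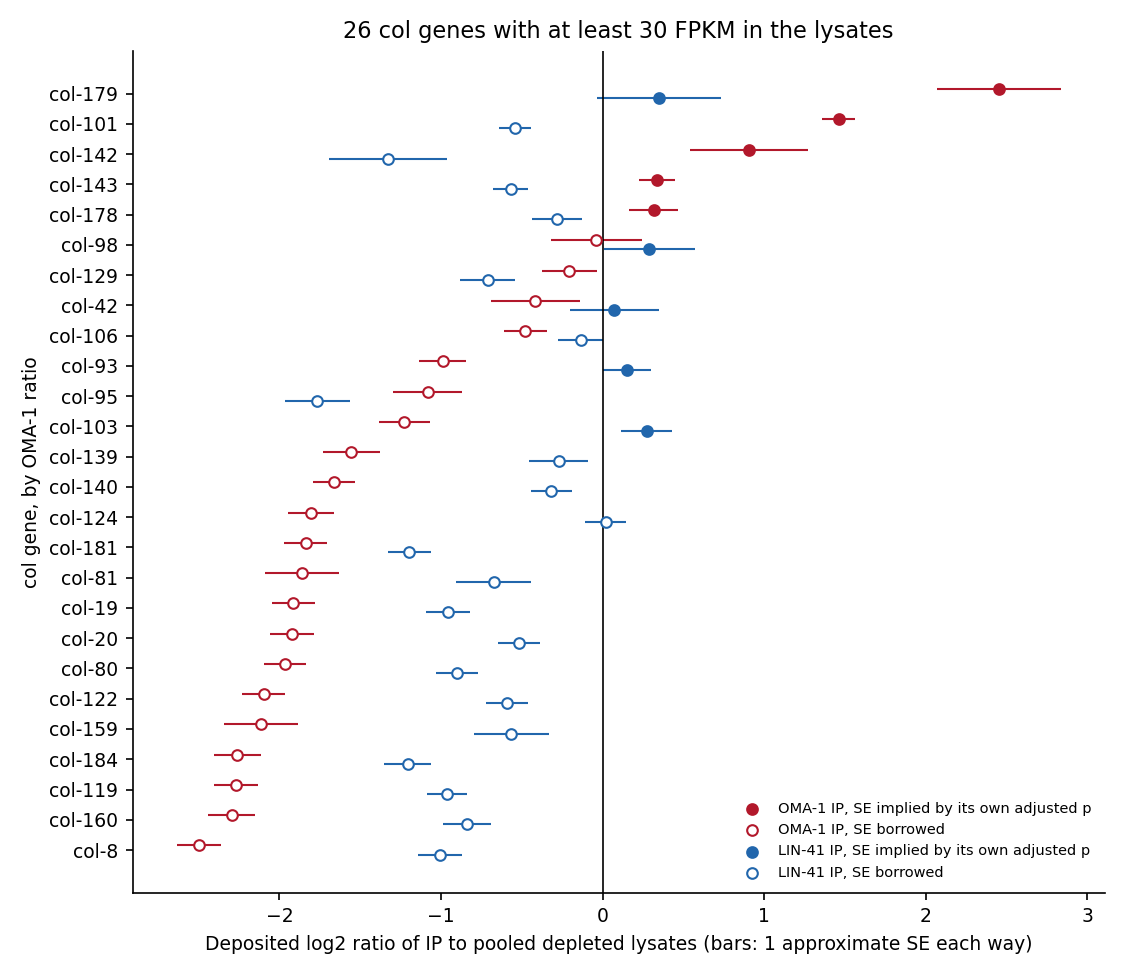
Deposited log2 ratio of the OMA-1 IPs (red) and LIN-41 IPs (blue) to the pooled depleted lysates for the 26 col genes with at least 30 FPKM in the lysates, with bars of 1 approximate SE each way and open symbols where that SE was borrowed. From col-98 down all OMA-1 ratios lie below 0, to -2.50 for col-8, whereas col-179, col-101, col-142, col-143 and col-178 have OMA-1 ratios above 0 and above their LIN-41 ratios; with equal totals or quantile normalization the OMA-1 ratios of col-142, col-143 and col-178 fall below 0, and that of col-101 with quantile normalization.

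The IPs were compared directly through the difference of their ratios, in which the lysates cancel. Col genes were mostly lower with OMA-1 than with LIN-41: the median log2 difference was -0.74, against -0.03 over all genes, and 75.6% of col genes were below 0, against 51.1% of all genes. Of 101 col genes tested, 7 (6.93%) were higher with OMA-1, where 19.6% of all genes were called, and 18 (17.8%) were lower, where 12.3% of all genes were called. Among the 26 abundant genes 5 were higher and 16 lower, against 32.5% and 26.6% of all 3246 genes with at least 30 FPKM in the lysates. The error of this test counts the lysate spread that cancels, which widens it. Most tested col genes took an SE borrowed at the 95th percentile of genes of like depth, which may be too narrow for them. Of 12 col genes with a baseMean of at least 100 and an SE of their own in either IP, 7 were above it. The net direction of the error is therefore not known.

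The 7 genes higher with OMA-1 were led by col-76, with a log2 difference of 3.04 ± 0.401 (approximate SE). The differences were 2.24 ± 0.514 for col-142, 2.10 ± 0.542 for col-179, 2.004 ± 0.141 for col-101 and 1.97 ± 0.364 for col-99. For col-101 the 95% interval ran from 1.73 to 2.28, and its FPKM of 1408 with OMA-1 and 350 with LIN-41 in the authors' deposited table was the largest gap in level of any col gene in that direction. Smaller differences were found for col-143, 0.91 ± 0.155, and col-178, 0.60 ± 0.216. With quantile normalization the difference was 0.04 for col-143, no longer called, and -0.26 for col-178. With equal totals that of col-178 was 0.22, also not called. The other 5 kept their calls under both scalings.

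The 10 largest of the 18 called differences of the opposite sign began with col-175, -3.20 ± 1.11 (approximate SE), a gene with 0.09 FPKM with OMA-1 and 1.46 FPKM with LIN-41 in the authors' deposited table. Among abundant genes col-124 had the largest, -1.82 ± 0.191, with 211 FPKM with OMA-1 and 782 FPKM with LIN-41 in the authors' deposited table. Its level with LIN-41 was close to that of the lysates, 772 FPKM in the authors' deposited table. The differences of col-39, col-159, col-122, col-103, col-8, col-160, col-20 and col-140 ran from -1.98 to -1.35. All 10 kept their calls with quantile normalization. With a wider borrowed SE, at the 99.5th percentile of genes of like depth, col-39 and col-159 lost theirs. For col-42, col-98 and col-106 no difference was called: their 95% intervals ran from -1.25 to 0.28, -1.11 to 0.45 and -0.72 to 0.03 on the log2 scale. With quantile normalization all 3 were called lower with OMA-1 than with LIN-41, and with equal totals col-106 was.

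An OMA-1 IP from an earlier study is set over the same lysates in a further column of the authors' deposited table, so that its ratios and the present ones share their denominator. The median of the col genes was -1.62 in that column of the authors' deposited table, against -0.14 over all genes. For the 10 genes called with OMA-1 here, the earlier ratios in the authors' deposited table were 4.29 for col-99, 3.26 for col-121, 2.85 for col-68, 2.40 for col-141, 2.02 for col-179, 1.63 for col-76, 1.23 for col-142, 0.41 for col-101, -0.17 for col-143 and -0.22 for col-116. Of these 10, 8 were above 0 and 2, col-143 and col-116, were below. For col-149 the earlier ratio was 0.0049 in the authors' deposited table, beside 1.87 here. For col-8, col-19 and col-140 it was -2.43, -2.29 and -2.04 in the authors' deposited table.

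Neighbouring col genes were compared because 36 of the 119 lie within 5 kb of another, in 15 groups. The col-141, col-142 and col-143 group on chromosome V (6829704 to 6836704) had all 3 genes called in the OMA-1 comparison of the authors' deposited table, at lysate levels from 0.22 to 462 FPKM. In the other 14 groups 1 gene was called, col-179, and in its pair with col-178 on X (11199455 to 11202485) the OMA-1 ratios were 0.32 and 2.45 in the authors' deposited table. Some neighbours had ratios of opposite sign, but no group held both a higher and a lower call with OMA-1: col-149 and col-150 on V had OMA-1 ratios of 1.87 and -1.25 in the authors' deposited table. On II, col-20 had a ratio of -1.92 (860 FPKM in the lysates) and its neighbour col-73 one of 0.55 (2.37 FPKM) in the authors' deposited table. The groups col-92, col-93 and col-94, col-159 and col-160, and col-13 and col-12 were lower with OMA-1 in every gene. With borrowed SEs at the 99.5th percentile, col-94, col-13 and col-12 lost these calls, and with quantile normalization col-12 did. The spans of col-159 and col-160 overlap by 1196 bases on the same strand, but their exons share only 21 bases. Whether reads were divided between them was not tested.

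**Figure D4:**
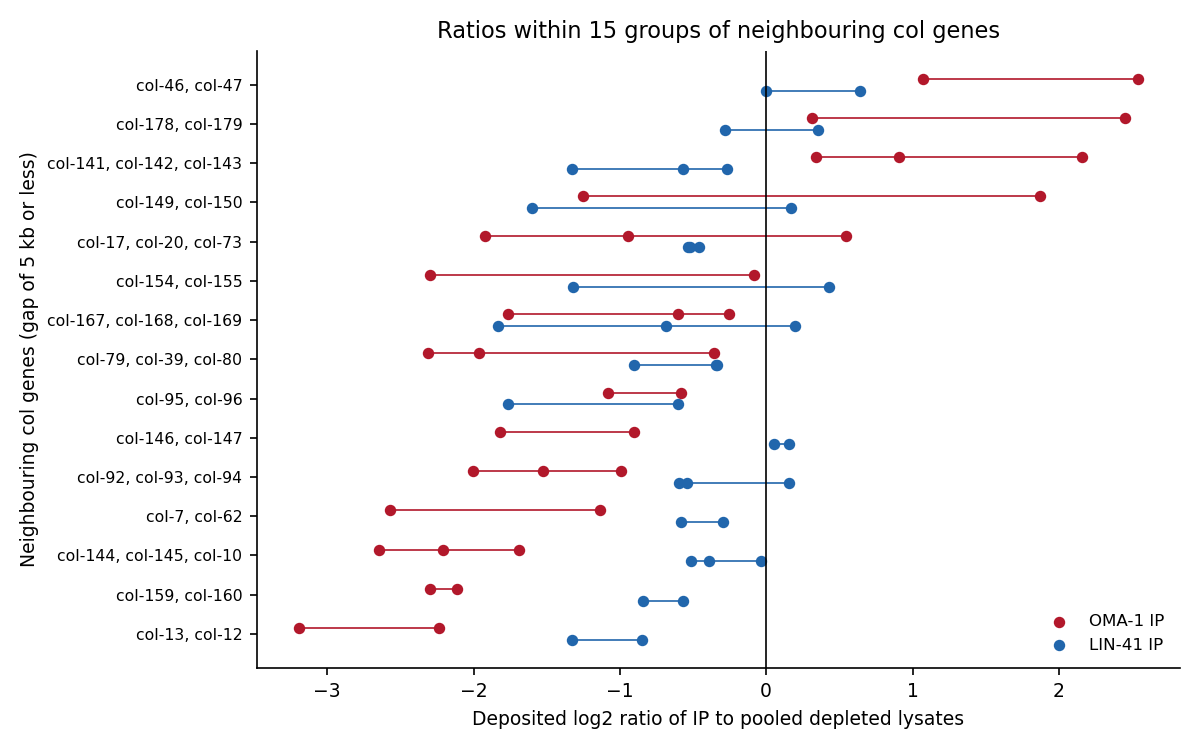
Deposited log2 ratios of col genes within 15 groups of neighbours, each gene no more than 5 kb from the next, with 1 point per gene and a line over the range of the group for the OMA-1 IPs (red) and the LIN-41 IPs (blue). The group of col-141, col-142 and col-143 has all OMA-1 ratios above 0, from 0.34 to 2.16, and all LIN-41 ratios below 0, and the pair of col-149 and col-150 spreads from -1.25 to 1.87 with OMA-1; with equal totals or quantile normalization the OMA-1 ratios of col-142, col-143 and col-178 fall below 0.

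An independent readout in the authors' deposited table compares dissected spermatogenic gonads of fem-3(q96gf) animals with oogenic gonads of fog-2(q71) animals, from another study. Of 114 col genes tested there, 41 (36.0%) were higher in spermatogenic gonads, where 27.6% of all genes were called, and 3 (2.63%) were lower, where 28.2% of all genes were called. All 26 abundant col genes had positive log2 ratios in the authors' deposited table, from 0.48 to 1.73 with a median of 0.99, and 20 of them were called higher. Of all 3238 tested genes with at least 30 FPKM in the present lysates, 20.2% were higher and 45.2% lower. The 5 called genes of largest size were col-121 (5.23), col-176 (4.81), col-89 (4.34), col-87 (3.24) and col-111 (3.22), as log2 ratios in the authors' deposited table, none of them above 1.69 FPKM in the present lysates. The 3 genes lower in spermatogenic gonads were col-97, col-99 and col-107, of which col-97 and col-107 were named after their values were seen. The lowest was col-97 (-2.46 in the authors' deposited table), followed by col-99, with a log2 ratio of -2.39 (adjusted p 9.93e-08) in the authors' deposited table. So col-121 and col-99, the 2 col genes of highest ratio with OMA-1, had opposite signs in the gonad comparison.

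Hypodermal genes other than collagens had mostly positive ratios. Of 14 such genes, 10 were higher with OMA-1 and 1 lower, and 8 were higher with LIN-41 and 2 lower. Of all tested genes, 28.4% were higher and 18.8% lower with OMA-1, and 27.2% and 14% with LIN-41. These shares are the background for the counts of this and the later gene lists, and no list was tested against them. The median log2 ratio was 2.19 (OMA-1) and 0.80 (LIN-41) in the authors' deposited table, 0.85 and -0.15 under equal totals, and 1.98 and 1.06 after quantile normalization. The apical matrix gene noah-2 reached 228 FPKM with OMA-1, 53.2 FPKM with LIN-41 and 4.06 FPKM in the lysates of the authors' deposited table. The hypodermal fate factor lin-26 had 825 FPKM with OMA-1, 46.5 FPKM with LIN-41 and 51.3 FPKM in the lysates of the authors' deposited table. Summed over the list, the level was 1247 FPKM with OMA-1, 145 FPKM with LIN-41 and 98.6 FPKM in the lysates of the authors' deposited table. Most of the OMA-1 sum came from lin-26 and noah-2. The lower calls were pah-1 in both IPs (-2.74 with OMA-1, -1.63 with LIN-41) and nlp-29 with LIN-41 (-0.89) in the authors' deposited table. With OMA-1 nlp-29 was higher (2.40). Both genes were named after their values were seen. In the gonad comparison of the authors' deposited table, 4 of these 14 were higher and 8 lower in spermatogenic than in oogenic gonads, with a median log2 ratio of -1.11. No member of this list was at 0 in any column of the authors' deposited table.

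Markers of other somatic tissues were mostly lower in the IPs than in the lysates. Of 6 intestinal markers, 5 were lower in each IP, with median log2 ratios of -2.13 (OMA-1) and -1.37 (LIN-41) in the authors' deposited table. Of 5 body wall muscle markers, 4 were lower in the OMA-1 IPs and 5 in the LIN-41 IPs, with medians of -0.94 and -1.56 in the authors' deposited table. Of 10 oocyte and germline markers, 8 were higher with OMA-1 and 0 lower, and 8 were higher with LIN-41 and 1 lower. Their medians were 1.28 (OMA-1) and 1.53 (LIN-41) in the authors' deposited table, -0.059 and 0.58 under equal totals, and -0.44 and 0.43 after quantile normalization. Of the 5 sperm markers only spe-9 was in the table, at 0.14, 0.11 and 0.13 FPKM with OMA-1, with LIN-41 and in the lysates of the authors' deposited table. The part that carry-over of germline or somatic RNA has in the col ratios was not tested.

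The phenotype-named cuticle collagens, which are built like the col proteins, counted 2 higher and 1 lower of 19 tested with OMA-1, and 2 higher and 0 lower of 18 tested with LIN-41. Their median log2 ratio was -0.45 (OMA-1) and 0.39 (LIN-41) in the authors' deposited table, against -0.09 and -0.05 over all genes. The 2 were dpy-10 and dpy-2, which act in the annular furrows of the cuticle. In the authors' deposited table dpy-10 had log2 ratios of 6.70 (OMA-1) and 3.04 (LIN-41), and dpy-2 had 3.99 and 3.80. Another cuticle collagen, sqt-3, was lower in the OMA-1 IPs, at -1.63 in the authors' deposited table. Of the 4 basement membrane and other collagens, emb-9, let-2 and cle-1 were lower with OMA-1, and emb-9, cle-1 and mec-5 with LIN-41. The type IV collagen chains emb-9 and let-2 had OMA-1 ratios of -0.95 and -0.86 in the authors' deposited table.

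Genes that process collagen had no common direction. Of 15, 4 were higher and 4 lower with OMA-1, and of 14 tested with LIN-41, 4 were higher and 1 lower. The higher counts lay close to the shares of all tested genes, 28.4% with OMA-1 and 27.2% with LIN-41, so they do not set this list apart. The thioredoxin-like gene dpy-11, needed for cuticle collagen maturation in the hypodermis, had 527 FPKM with OMA-1, 75.4 FPKM with LIN-41 and 34.7 FPKM in the lysates of the authors' deposited table. The protein disulphide isomerase genes pdi-1 and pdi-6 changed in opposite directions in the OMA-1 IPs, at log2 ratios of 2.65 and -1.99 in the authors' deposited table. Of 11 cuticlins and other cuticle proteins, 3 were higher and 1 lower with OMA-1 (noah-2, lpr-3 and noah-1, and dpy-6), and 3 were higher and 0 lower with LIN-41. Among these, noah-1, noah-2 and fbn-1 were already counted in the hypodermal list.

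Of 14 transcription and timing regulators of cuticle genes, 8 were higher with OMA-1 and 1 lower, and 7 were higher with LIN-41 and 0 lower. The genes lin-26, elt-1 and elt-3 were counted in the hypodermal list as well, so the lists are not separate observations. The median log2 ratio was 0.88 (OMA-1) and 0.25 (LIN-41) in the authors' deposited table, -0.46 and -0.70 under equal totals, and 0.68 and 0.16 after quantile normalization. The adult switch factor lin-29, which turns on col-19, had 2.30 FPKM with OMA-1, 176 FPKM with LIN-41 and 1.28 FPKM in the lysates of the authors' deposited table. Its cofactor gene mab-10 had 28.7 FPKM with OMA-1, 1483 FPKM with LIN-41 and 3.64 FPKM in the lysates of the authors' deposited table. The moulting factor nhr-23 had log2 ratios of 2.32 (OMA-1) and 2.10 (LIN-41) in the authors' deposited table.

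By structure, the col genes were compact: the median exonic length was 1024 bases in Ensembl release 115, from 724 to 2960 bases. They lay on all chromosomes, 15 on I, 20 on II, 12 on III, 28 on IV, 28 on V and 16 on X. On chromosome I, 0 of 13 tested genes were called higher and 0 lower with OMA-1, and the summed lysate level there was 7.61 FPKM in the authors' deposited table. Chromosome X had 1 of 15 tested genes higher (col-179) and 7 lower with OMA-1. Over the family 8.62% were higher and 31.03% lower, and over all genes 28.4% and 18.8%. That annotation names 156 col genes, of which 118 were among the 119, and lists the remaining one, col-182, as an unnamed pseudogene. None of the 119 carried the authors' mark for an effect of multiple mapping, which 69 genes of the table had. The spans of 47 overlapped another gene of the table, and 30 did so in exons.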

How the data were processed

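RNA-seq was done on 8 libraries of C. elegans IPs and lysates. The tools listed in the submitters' processing notes, with neither role nor order, are DESeq2 1.12.3, STAR 2.4.2a, Trimmomatic 0.32 and SAMtools 1.0; the build is WBcel235 (ce11). Which counter and annotation were used, and whether strand counted, is not given in the sources used here. Per the file headers, the authors deposited pooled FPKM values, log2 ratios of both IPs over pooled depleted lysates with adjusted p-values, and baseMean, a scaled mean signal. The authors also deposited log2 ratios of an earlier OMA-1 IP and of gonads, the second with an adjusted p-value. Another 4 columns hold values of other studies and were left out.

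Tested genes whose ratio was 0 or less all had a deposited adjusted p of 1. Each deposited p-value was turned back by undoing the Benjamini-Hochberg steps into a one-sided normal z, and log2 ratio over z gave the implied SE. Genes with none took the SE of the other IP, or the 95th percentile among the 201 genes nearest in baseMean. Lower values had a one-sided and the difference of IPs a two-sided normal test, adjusted over all genes at 0.05. These approximate tests assume that the implied SEs hold, which could not be checked without values per library. The spread they measure is that between libraries, which the labels do not say came from separate cultures.

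Alternatives were equal FPKM totals without mitochondrial genes, quantile normalization (0.1 FPKM added), baseMean of at least 10, an adjusted p below 0.01, 2-fold changes, 1 FPKM added, and, added after seeing the data, no members overlapping another gene and the 99.5th percentile for borrowed SEs. Named were all members called higher, the 10 highest in the lysates, the 5 lowest per IP, up to 10 per direction of the difference, the 5 of largest size in the gonad comparison and members with a listed role. From each gene list up to 4 genes were eligible. The members, lists and tests were chosen with earlier results of these data known. Coordinates are from Ensembl release 115 (WBcel235). Python 3.11.15, numpy 2.4.6, scipy 1.17.1 and pandas 2.3.3 were used.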

Additional observations from a re-analysis of the deposited data

Results flagged for a closer look

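The results below stood out because the effect in one IP differed from that in the other by the approximate two-sided test of the difference. As OMA-1 minus LIN-41 log2 differences, the genes higher with OMA-1 were col-76 at 3.04, col-142 at 2.24, col-179 at 2.10, col-101 at 2.004, col-99 at 1.97, col-143 at 0.91 and col-178 at 0.60. The genes lower with OMA-1 were col-175 at -3.20, col-39 at -1.98, col-124 at -1.82, col-159 at -1.55, col-122 at -1.51, col-103 at -1.50, col-8 at -1.49, col-160 at -1.46, col-20 at -1.40 and col-140 at -1.35. The 10 shown are the largest of 18 in that direction. Of the 12 col genes with a baseMean of at least 100 and an SE from a p-value of their own in either IP, 7 had an SE above the 95th percentile of genes of like depth, and col-142, col-178 and col-179 were among them.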

How the results depend on the processing

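No paired analysis was possible because only pooled values were at hand, and leaving out a replicate was not run for the same reason. With equal totals the counts of col genes were 3 higher and 74 lower with OMA-1, and 41 lower with LIN-41. As shares of tested col genes these were 2.59%, 63.8% and 40.6%, against 14.1%, 52.0% and 46.4% of all tested genes, so the LIN-41 share lay below the background. Equal totals lower all ratios alike, so lower calls could only be added. Quantile normalization gave 6 higher with OMA-1 (5.17%, against 23.1% of all genes) and 26 lower with LIN-41 (25.7%, against 21.1%). Without members that overlap another gene there were 3 higher and 19 lower with OMA-1, 0 higher (1 with overlaps, by the authors' test) and 8 lower with LIN-41, and differences of 2 higher and 7 lower. Leaving out these 47 members lowers the counts by itself, and no share of all genes was worked out for this setting. LIN-41 lower calls were 6 at 2-fold (5.94%, against 8.48% of all genes) and 11 with the 99.5th percentile (10.9%, against 8.12%). The median with OMA-1 was -2.29 with equal totals, -1.25 with a baseMean of at least 10 and -0.40 with 1 FPKM added. With LIN-41 it was -1.20 with equal totals, -0.13 with quantile normalization and -0.085 with 1 FPKM added. The median difference was -1.12 with equal totals, -0.88 with quantile normalization, -1.06 with a baseMean of at least 10 and -0.32 with 1 FPKM added. Of OMA-1 ratios, col-142 turned to -0.43 and col-143 to -0.997 with equal totals, as did col-178, not called in the deposited table, to -1.02 (-1.40 after quantile normalization), and col-101 to -0.089, col-142 to -0.090 and col-143 to -1.37 with quantile normalization, which also turned the difference of col-178 to -0.26. The cause was not tested. Of the 36 genes lower with OMA-1, 32 were lower also with quantile normalization. That setting called 37 lower (31.9%, against 25.3% of all genes), a narrower gap than with the deposited scaling. Lower calls with OMA-1 were 34 at 2-fold (29.3%, against 13.2%) and 28 with the 99.5th percentile (24.1%, against 11.3%). With a baseMean of at least 10, col-178 was called higher with OMA-1. The planned exclusion of near-identical proteins was not run. In the family 56 genes had a baseMean below 10, where a change was detectable only if large.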
